A study of Homo sapiens with 2 samples.

Results

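RELA, the p65 subunit of the transcription factor NF-kB, and 4 genes known as NF-kB targets (BIRC3, TNFAIP3, CXCL2 and CXCL5) were followed in MiaPaCa, a long-established cell line from a human pancreatic carcinoma. The 5 genes were found by their symbols in a deposited table of 836 listed loci and were chosen with their ratios known, so those ratios are a description without a test. The table compares 2 bulk libraries, 1 per group, and gives FPKM values, the authors' fragment counts scaled to transcript length and mapped fragments. The MYB-silenced cells stably carried the plasmid pGFP-V-RS-shMYB, a short hairpin RNA against the transcription factor MYB. The Scr control cells carried the scrambled plasmid pGFP-V-RS-Scr. Both were pooled transfected populations kept under puromycin (2 μg/ml), and their genotype labels read MYB-silenced and MYB-overexpression, although no overexpression plasmid is described. With 1 library per group no replicate error exists, and the number of sequenced fragments is unknown.

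NF-kB is a family of dimeric transcription factors that inhibitory IkB proteins hold in the cytoplasm until an upstream kinase complex marks those inhibitors for destruction. The RELA and NFKB1 pair is its best known form, and it binds kappa B sites near genes of inflammation and cell survival. TNFAIP3 encodes A20, a ubiquitin-editing enzyme that switches the pathway off again, and BIRC3 encodes an inhibitor of apoptosis (cIAP2) that also ubiquitinates members of the tumour necrosis factor receptor complex. CXCL2 and CXCL5 encode secreted chemokines that attract neutrophils through the receptor CXCR2. NF-kB activity is well known in pancreatic cancer, where it has been tied to survival and inflammation.

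The promoter windows of the 5 genes are shown because 4 of them hold the sequence that RELA dimers recognise. Each runs from 250 bases before to 50 bases after an annotated transcript start and was taken from RefSeq (GRCh38.p14), 5′ to 3′ on the gene's strand. All 5 genes were matched by symbol. Capitals mark matches, on either strand, to the kappa B consensus in its usual degenerate form (GGG, a purine, NN, a pair of pyrimidines, CC), with overlapping matches joined. RELA has 2 annotated windows, and the printed one holds the starts of 20 of its 27 GENCODE transcripts. The other windows hold 4 of 7 starts for BIRC3, 2 of 11 for TNFAIP3, 3 of 3 for CXCL2 and 1 of 1 for CXCL5. The windows are chr11:65662867-65663166 (minus strand) for RELA, chr11:102317234-102317533 (plus) for BIRC3, chr6:137867009-137867308 (plus) for TNFAIP3, chr4:74099146-74099445 (minus) for CXCL2 and chr4:73998628-73998927 (minus) for CXCL5.
RELA: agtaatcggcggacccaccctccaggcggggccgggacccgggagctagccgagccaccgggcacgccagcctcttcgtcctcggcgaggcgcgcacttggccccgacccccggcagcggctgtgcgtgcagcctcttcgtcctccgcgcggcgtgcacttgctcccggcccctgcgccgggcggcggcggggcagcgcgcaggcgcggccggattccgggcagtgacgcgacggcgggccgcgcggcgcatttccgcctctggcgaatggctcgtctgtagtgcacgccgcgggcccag
BIRC3: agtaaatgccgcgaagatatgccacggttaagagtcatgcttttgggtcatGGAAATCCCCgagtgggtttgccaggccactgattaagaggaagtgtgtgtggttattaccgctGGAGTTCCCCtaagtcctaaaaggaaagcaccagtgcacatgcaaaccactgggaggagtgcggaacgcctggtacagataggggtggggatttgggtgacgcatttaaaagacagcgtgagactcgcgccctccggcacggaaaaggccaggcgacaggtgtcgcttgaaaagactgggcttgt
TNFAIP3: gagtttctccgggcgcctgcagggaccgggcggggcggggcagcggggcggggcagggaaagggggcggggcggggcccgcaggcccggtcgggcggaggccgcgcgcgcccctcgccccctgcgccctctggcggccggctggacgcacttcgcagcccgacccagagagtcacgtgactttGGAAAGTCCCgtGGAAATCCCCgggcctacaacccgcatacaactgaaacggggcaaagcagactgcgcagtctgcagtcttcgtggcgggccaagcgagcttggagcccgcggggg
CXCL2: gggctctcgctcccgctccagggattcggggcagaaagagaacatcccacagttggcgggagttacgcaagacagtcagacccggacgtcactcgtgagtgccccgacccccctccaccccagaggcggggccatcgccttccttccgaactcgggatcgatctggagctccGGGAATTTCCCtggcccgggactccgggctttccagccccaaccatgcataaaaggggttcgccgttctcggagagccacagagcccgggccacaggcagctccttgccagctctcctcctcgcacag
CXCL5: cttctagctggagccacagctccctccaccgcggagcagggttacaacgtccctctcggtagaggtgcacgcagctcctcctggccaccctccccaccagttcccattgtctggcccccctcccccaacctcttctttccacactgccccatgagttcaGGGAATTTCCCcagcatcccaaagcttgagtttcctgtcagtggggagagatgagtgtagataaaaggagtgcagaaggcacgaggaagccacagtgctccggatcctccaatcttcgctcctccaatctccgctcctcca

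The window of BIRC3 held a pair of separate matches, GGAAATCCCC at -199 to -190 and GGAGTTCCCC at -135 to -126 from the transcript start, both read on the opposite strand. TNFAIP3 also held a pair, closer to its start, with GGAAAGTCCC at -67 to -58 and GGAAATCCCC at -55 to -46. The decamer GGAAATCCCC thus occurs in both windows. CXCL2 and CXCL5 each held the same site of 11 bases, GGGAATTTCCC, at -78 to -68 and -91 to -81, which matches on both strands. Neither RELA window held a match. Of 35116 RefSeq windows of this length, 11.3% held at least 1 match and 0.994% held 2 or more. A match describes these letters only and does not show that RELA was bound there.

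**Figure D1:**
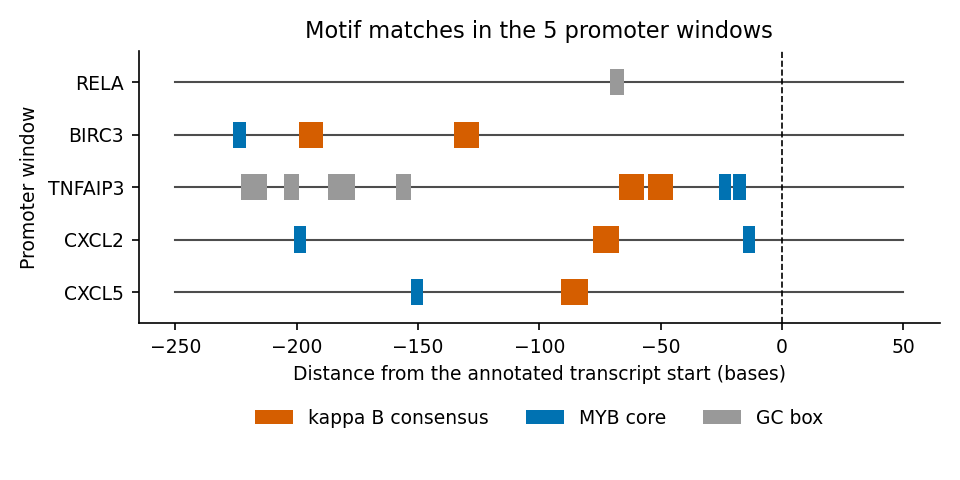
Positions of motif matches in the promoter windows of the 5 genes, as distance in bases from the annotated transcript start (dashed line); orange boxes are kappa B consensus matches, blue boxes the MYB core AACNG and grey boxes the GC box GGGCGG. The 4 target genes carry orange boxes between -199 and -46, and the RELA window carries only 1 GC box, at -71 to -66.

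The core of the MYB recognition sequence, AACNG on either strand, was found in the windows of all 4 target genes and not in the printed RELA window. It lay at -226 to -222 in BIRC3, at -26 to -22 and -20 to -16 in TNFAIP3, at -201 to -197 and -16 to -12 in CXCL2, and at -153 to -149 in CXCL5. This short core occurred in 77.2% of all windows, so its presence is common. The second RELA window (chr11:65663808-65664107), in which no GENCODE transcript starts, held 2 copies. The GC box GGGCGG, present in 45% of all windows, occurred at 4 places in the TNFAIP3 window, at 1 in the printed RELA window, and not in those of BIRC3, CXCL2 and CXCL5.

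RELA stood at 23.8 FPKM in control cells and at 5.14 FPKM in silenced cells (record on chromosome 11, 65421067 to 65430443, hg19), so that 21.6% remained. Ratios here are log2 differences of FPKM after adding 0.5 to both values, a scale that makes changes of weak genes look smaller, and that of RELA was -2.11. In the authors' deposited table its unadjusted p-value, which compares 2 libraries and not 2 conditions, was 5e-05, the smallest value there, shared by 25 loci. RELA stood above 64.4% of the listed loci in the control library and above 27.2% of them in the silenced library. In a bulk pool, fewer expressing cells and less RNA per cell cannot be told apart.

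The level of MYB checks the label of the silenced library: the control library had 981 FPKM of it and the silenced library 0.554 FPKM. The control value was the highest of all listed loci in that library. It does not settle whether the control label MYB-overexpression holds. The table lists only loci with a p-value of at most 0.04995 in the authors' deposited table. Of the listed loci, 516 were lower and 320 higher in the silenced library, with a median log2 ratio of -0.80. None of 23 marker genes of pancreatic epithelium, leukocytes, endothelium, fibroblasts or acinar cells was among them, so the cell type could not be checked here. Of 31 striated muscle markers, a list added after the values were seen, 7 were listed: TNNT2, DES, MYH7, TCAP, TNNC1, MYL3 and MB. All 7 were lower in the silenced library, as were 61.7% of all listed loci. The 7 markers ranged from 1.05 to 3.05 FPKM in the control library (13.7 FPKM in sum). In the silenced library they ranged from 0 to 0.736 FPKM (1.48 FPKM in sum), with TNNT2 and MYL3 listed at 0. These markers moved in the direction of the 5 genes, and their part in the results was not tested.

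The survival gene BIRC3 (chromosome 11, 102188138 to 102210135) had 11.6 FPKM in control cells and 1.99 FPKM after silencing. The remaining 17.2% was the lowest share among the 5 genes, and the log2 ratio was -2.28. The authors' deposited table gives BIRC3 the same p-value as RELA, 5e-05. BIRC3 lies on the same chromosome as RELA, more distant than the 1000000 bases searched for neighbours. The longest coding transcript of BIRC3 shared 0.214% of its 50-base stretches with other genes, led by its relative BIRC2.

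TNFAIP3, the feedback inhibitor, was the weakest of the 5, at 1.58 FPKM in the control library and 0.307 FPKM in the silenced library (chromosome 6, 138144807 to 138204451). The 19.5% that remained was close to the shares left for RELA and CXCL2. Because both values are low, its log2 ratio depended on the pseudocount, from -1.36 with 0.5 to -2.36 without any and -0.98 with 1, where it was no longer past 2-fold. The authors' deposited table gives it a p-value of 0.00305. The record named TNFAIP3 spans 59645 bases, 3.52 times the 16964 bases of the RefSeq gene. RefSeq places the antisense long non-coding gene WAKMAR2 beside it, overlapping it by 1885 bases, and the pair together spans 59644 bases. The sources used here do not state strand, so reads of TNFAIP3 and WAKMAR2 cannot be told apart in this record.

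The chemokine gene CXCL2 (chromosome 4, 74962754 to 74964997) had 5.63 FPKM in control cells and 1.15 FPKM after silencing, with 20.5% left and a log2 ratio of -1.89. CXCL5 (chromosome 4, 74861359 to 74864416) was at 43.3 FPKM and 21.2 FPKM, with 48.8% left and a log2 ratio of -1.02. CXCL5 was therefore the most abundant of the 5 genes in both libraries and the one with the smallest relative difference. Its absolute difference, 22.2 FPKM, was nevertheless larger than the 18.7 FPKM of RELA and the 4.47 FPKM of CXCL2. The authors' deposited table gives a p-value of 0.0138 for CXCL2 and 0.0127 for CXCL5. CXCL2 shared 9.24% of its 50-base transcript stretches with other genes, most of them with its close relative CXCL1. For CXCL5 that share was 1.12%, for RELA 0.925% and for TNFAIP3 0%. How reads of shared stretches were assigned is not stated, so these shares do not measure the error of any FPKM value.

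**Figure D2:**
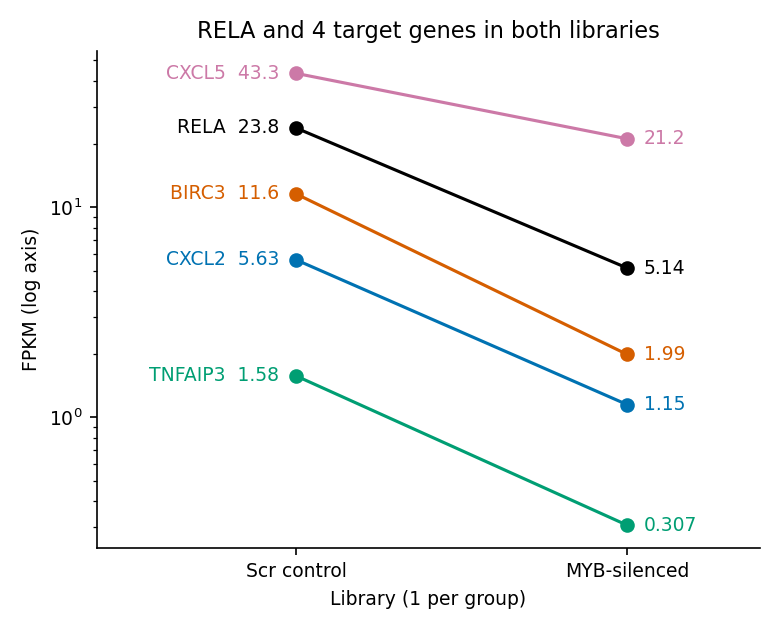
FPKM (log axis) of RELA, BIRC3, TNFAIP3, CXCL2 and CXCL5 in the Scr control and MYB-silenced libraries, 1 library each, with the values printed beside the points. The 4 lines of RELA, BIRC3, CXCL2 and TNFAIP3 fall side by side to between 17.2% and 21.6% of the control level, whereas CXCL5 keeps 48.8%.

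By level per transcript length, the order of the 5 genes was the same in both libraries: CXCL5, RELA, BIRC3, CXCL2 and TNFAIP3. Without replicates no neighbours in this order can be separated by their spread. RELA, CXCL2 and TNFAIP3 kept nearly fixed proportions of FPKM when no pseudocount was added. RELA was 4.24 times CXCL2 in the control library and 4.46 times in the silenced library, and CXCL2 was 3.57 and 3.75 times TNFAIP3. With the pseudocount of 0.5, the log2 ratio of TNFAIP3 lay 0.53 from that of CXCL2 and 0.75 from that of RELA. CXCL5 moved away from the others, from 1.82 times RELA to 4.12 times, and from 7.71 times CXCL2 to 18.4 times. The log2 ratios of the 2 chemokine genes lay 1.25 apart without a pseudocount and 0.87 apart with the pseudocount used for the main ratios. Their promoter windows share the site GGGAATTTCCC, and the part of that site in these ratios was not tested.

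All 5 genes were lower in the silenced library, as were 61.7% of the listed loci. All 5 were also at least 2-fold lower, against 25% of all listed loci. That call was lost for TNFAIP3 with a pseudocount of 1 (-0.98), and for TNFAIP3 (-0.57) and CXCL5 (-0.22) after centring on the median of the listed loci, after which 31 loci of at least 1 FPKM were 2-fold lower in place of 197. Of the 5, 4 had a mean of at least 1 FPKM and all 4 were at least 2-fold lower, against 24.7% of the 797 loci at that level, while TNFAIP3 had a mean of 0.942 FPKM. Nothing is read from these shares, because the genes were picked by this contrast. From the lowest ratio upward, BIRC3 ranked 16, RELA 22, CXCL2 32, TNFAIP3 76 and CXCL5 195 among the 836 loci. Without a pseudocount the ranks were 33 for BIRC3, 37 for TNFAIP3, 39 for CXCL2, 41 for RELA and 229 for CXCL5, so the order of the first 4 genes rests on the pseudocount.

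**Figure D3:**
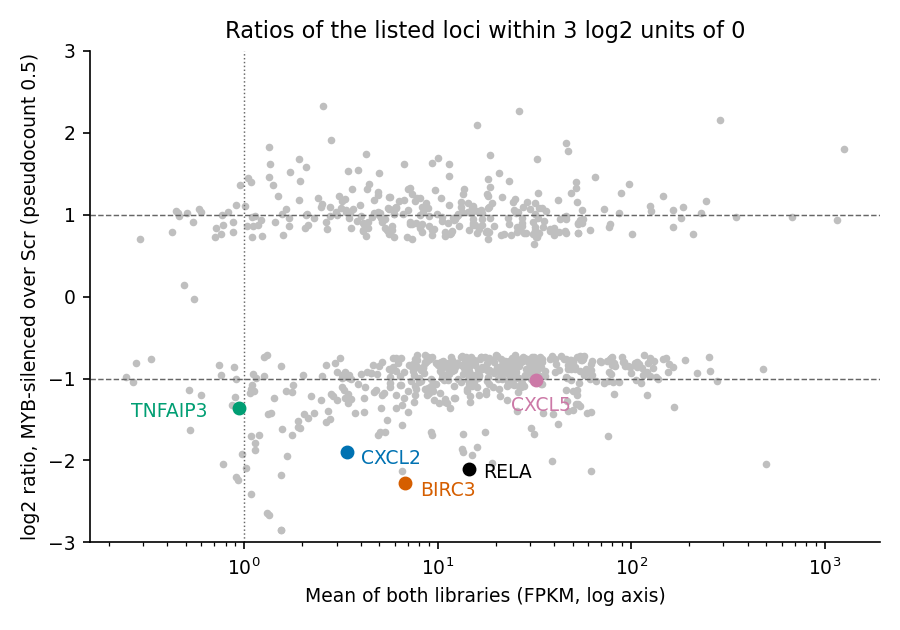
Log2 ratio (MYB-silenced over Scr, pseudocount 0.5) against the mean FPKM of both libraries (log axis) for the listed loci, in grey, with the 5 genes in colour; dashed lines mark 2-fold, the dotted line 1 FPKM, and 27 loci beyond 3 log2 units are not drawn. RELA, BIRC3 and CXCL2 lie near -2, below most loci of their level, and CXCL5 lies at the 2-fold line.

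The rest of the pathway was described with 11 gene lists that hold 237 symbols, older names included. Among the 5 NF-kB subunits, RELA was the only listed gene, and RELB, REL, NFKB1 and NFKB2 were not analysed here. None of 7 IkB inhibitors, 21 RELA co-regulators or 30 other chemokines and receptors was listed. Of 17 IKK and upstream kinases 1 was listed, RIPK1, which relays signals from the tumour necrosis factor receptor, at 11.1 and 6.15 FPKM (log2 ratio -0.80). Of 18 adaptors and ubiquitin ligases 1 was listed, RBCK1, a subunit of the linear ubiquitin ligase complex that activates the pathway, and it was higher, at 36.1 and 75.6 FPKM (1.05).

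Among 32 receptors and ligands of the tumour necrosis factor, interleukin and Toll-like families, the joint record of RTEL1 and the decoy receptor gene TNFRSF6B was higher, at 105 and 470 FPKM (log2 ratio 2.15). The record does not separate the 2 genes. In the list of 17 IAP family and caspase genes, BIRC7, a melanoma-associated IAP, stood opposite BIRC3, at 2.35 and 7.62 FPKM (1.51). CXCL2 and CXCL5 were the listed members of the 13 symbols for CXCR2 ligands and their receptors. Of 64 other NF-kB target genes 2 were listed. The urokinase gene PLAU was at 99.2 and 59.3 FPKM (-0.74), and HLA-B, an antigen-presenting molecule, was higher at its main record, at 8.68 and 43.8 FPKM (2.27), and at 3 records on alternate haplotype contigs, which are copies of the same gene and not independent of it.

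Together the lists had 14 listed records, 7 lower and 7 higher (38.3% of all listed loci were higher). Their median log2 ratio was 0.16, against -0.80 over all listed loci. It falls in the gap between PLAU and RBCK1, and at a mean of at least 1 FPKM, which removes TNFAIP3 alone, it was 1.05. Both medians count HLA-B 4 times. With HLA-B counted once, the middle of the 11 listed genes was RIPK1, at -0.80. Without the 5 genes followed here, 9 records remained, 2 lower and 7 higher, with a median of 1.25, and 4 of the higher records were those of HLA-B. Of the 14 records, 7 were at least 2-fold higher, 4 of them records of HLA-B, against 20% of all listed loci. Neither of the 2 lower records outside the 5 genes, RIPK1 and PLAU, reached 2-fold. The lower records of at least 2-fold were therefore the 5 chosen genes and no others in these lists. The lists do not hold every gene of these families. TNFRSF10D, a tumour necrosis factor receptor family gene outside them, was lower, at 20.9 and 6.22 FPKM (log2 ratio -1.67).

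**Figure D4:**
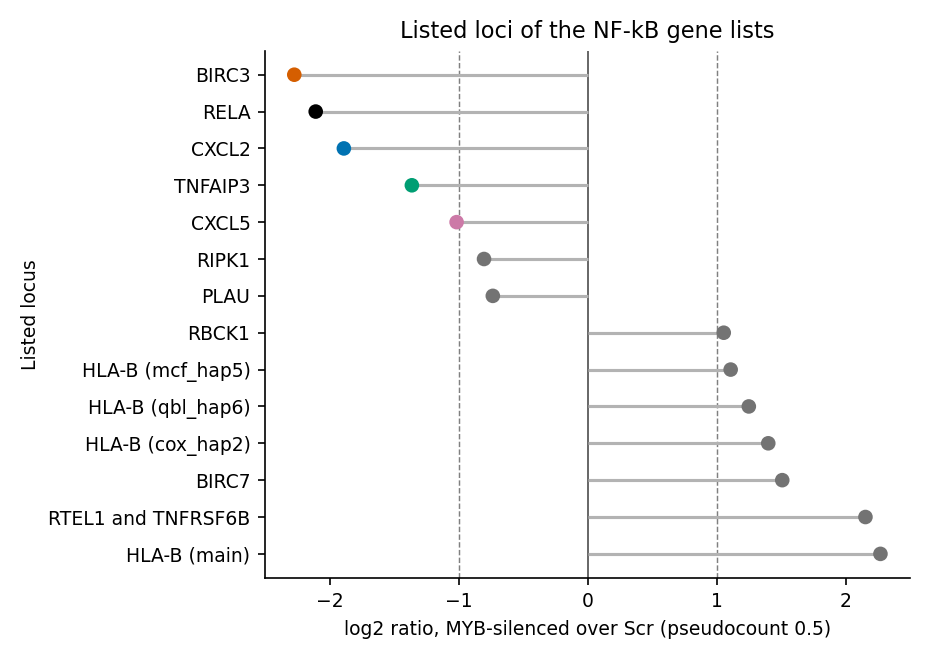
Log2 ratio (MYB-silenced over Scr, pseudocount 0.5) of the 14 listed records of the NF-kB gene lists; coloured points are the 5 genes, grey points other list members, and dashed lines mark 2-fold. The 5 genes lie between -2.28 and -1.02, RIPK1 and PLAU inside the 2-fold lines, and RBCK1, BIRC7, the joint TNFRSF6B record and the 4 HLA-B records at 1.05 or higher.

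The direction of listed loci moved with transcript GC content, and the 5 genes fell at different places along it. Of 5 equally filled GC content bins, the lowest had 92.4% lower loci and the highest 11.5%. RELA (median transcript GC content 61.8%) and CXCL2 (61.8%) belonged to the highest bin, where RELA had the lowest log2 ratio of 157 loci and CXCL2 the next lowest. BIRC3 (38.8%) and CXCL5 (37.6%) belonged to the lowest bin, with ranks 4 and 47 of 157 from the lowest ratio. TNFAIP3 (50.04%) lay in the middle bin, with rank 12 of 157. Without a pseudocount the ranks were 4 for RELA, 3 for CXCL2, 4 for BIRC3, 53 for CXCL5 and 5 for TNFAIP3. The part of GC content in the ratios of the 5 genes was not tested.

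**Figure D5:**
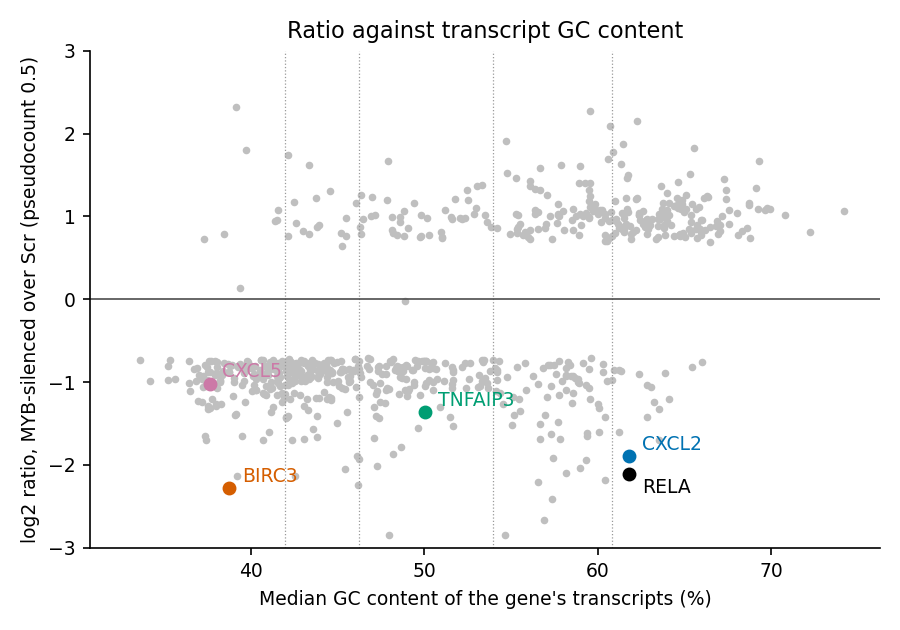
Log2 ratio (MYB-silenced over Scr, pseudocount 0.5) against the median GC content (%) of each gene's GENCODE transcripts for 783 loci, in grey, with the 5 genes in colour; dotted lines divide 5 bins and 25 loci beyond 3 log2 units are not drawn. RELA and CXCL2 lie at 61.8% among loci that are mostly higher, and BIRC3 and CXCL5 lie below 40% among loci that are mostly lower.

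Among listed genes matched to a RefSeq window (572 of 813 single-gene names on the main chromosomes), the kappa B consensus was counted by direction, without a test. It occurred in at least 1 window of 62 of 376 lower genes (16.5%), 60 of 196 higher genes (30.6%) and 13.3% of all 27305 genes with a window. The MYB core occurred for 84.3% of the lower and 71.9% of the higher genes, and for 80.5% of all genes with a window. The consensus is rich in G and C, and these shares were not compared at equal base composition.

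The nearest listed neighbours of the 5 genes did not share a direction. CXCL2 and CXCL5 lie 98337 bases apart in the chemokine cluster of chromosome 4 and were both lower, while their other cluster members were not analysed here. Around RELA, 4 loci were listed within 1000000 bases, against a median of 1 per listed locus. The nuclear long non-coding RNA MALAT1 (43.8 and 25.0 FPKM, log2 ratio -0.79), the AP-1 subunit gene FOSL1 (73.9 and 29.6 FPKM, -1.31) and the cohesion factor gene CDCA5 (34.8 and 17.2 FPKM, -0.995) were lower. NEAT1, a long non-coding RNA that builds paraspeckles, was higher, at 56.7 and 116 FPKM (1.02). The neighbour of TNFAIP3, KIAA1244, was higher (0.701 and 1.49 FPKM, 0.73), and BIRC3 had no listed neighbour.

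With the pseudocount of 0.5, the loci closest to RELA in log2 ratio, over the 2 libraries, were DES (-2.10), DKK1 (-2.13), HIF1A (-2.13) and LDHA (-2.04), at most 0.065 away. Loci averaging under 1 FPKM over both libraries were left out of the search, among them SNORA23 (log2 ratio -2.24) and TNNT2 (-2.20). Both lay nearer to BIRC3 than the loci named next. KRT16 and HIST1H4D were closest to BIRC3, XRCC2 and HDAC9 to TNFAIP3, SEMA3C and FAM212A to CXCL2, and BTG2 and KIF18A to CXCL5. This likeness rests on the pseudocount. Without it DES moved to -4.66 while RELA was at -2.21, and the loci closest to RELA were SEMA3D, HIF1A, HIST1H1E and LOC646736, of which HIF1A alone was named before. None of the other pairs remained either. Among the loci searched, DKK1 and ALOXE3 were then closest to BIRC3 and to TNFAIP3. ADM and ALOXE3 were closest to CXCL2, and ANXA1 and DEM1 to CXCL5.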

How the data were processed

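RNA of 2 MiaPaCa libraries was sequenced, and the deposited FPKM values were made by the authors. Per the submitters' processing notes, CASAVA 1.8.2, TopHat, Bowtie, Cufflinks and hg19 were used, without stated roles. The authors also deposited a signed fold score, a log2 ratio and an unadjusted p-value. For all 801 loci above 0 in both libraries, the authors' log2 values matched those recomputed from FPKM to within 0.001. The sources used here do not state annotation, scaling between libraries, strand or depth, and no interval could be computed.

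Ratios used a pseudocount of 0.5 FPKM, and counts of 2-fold differences were also made with a mean of at least 1 FPKM. No test was run. Blank rows of the table were dropped, and printed starts were raised by 1. That step rests on 41 single-gene loci whose end minus start equals the RefSeq length, against 7 with 1 added. Promoters came from RefSeq (GRCh38.p14) and transcripts from GENCODE release 29, and hg19 and GRCh38 coordinates were not combined. The GC content of 783 of 836 loci (93.7%) was the median over transcripts matched by symbol. The motif search and the ratio counts were tested on simulated data. Python 3.11.15, pandas 2.3.3 and matplotlib 3.10.9 were used.

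The 5 genes, the lists and the rule for named genes were chosen with earlier results of these data known. That rule names the 5 genes, MYB, the listed loci of the NF-kB lists (4 per list by ratio where more were listed), up to 4 listed neighbours per gene, and the 4 loci closest to RELA and the 2 closest to each other gene in ratio. The search for the closest ratios skipped loci averaging under 1 FPKM. Alternatives were other pseudocounts, filters and folds, and centring.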

Additional observations from a re-analysis of the deposited data

How the results depend on the processing

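The 5 genes were lower under every setting run, but centring on the median of the listed loci, which are selected for change, made each log2 ratio smaller: -1.31 for RELA, -1.48 for BIRC3, -0.57 for TNFAIP3, -1.09 for CXCL2 and -0.22 for CXCL5. TNFAIP3 also moved to -0.98 with a pseudocount of 1 and to -2.36 without a pseudocount, and the other 4 genes stayed within 1.5 times of their reported ratios under other pseudocounts. Counts past the fold, 197 lower and 159 higher at 2-fold, were 497 and 300 with 1.5-fold, 48 and 35 with 3-fold, and 31 and 300 after centring. The median log2 ratio of the NF-kB list records, with every HLA-B record counted, was 1.05 with a mean of at least 1 FPKM and 0.16 without that filter. Centring reversed MALAT1 (0.0029) and PLAU (0.062). No paired analysis was possible because each group has 1 library and no test was run, and no library could be left out. Depth is unknown, so the values under 1 FPKM, including TNFAIP3 after silencing, are the least certain.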

Other observations

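A pair of kappa B matches in 1 promoter window, as in BIRC3 and TNFAIP3, was found for 15 of the 572 matched listed genes. Among all 27305 genes with a window, 1.21% held 2 or more. Of the 15 genes, 9 were lower and 6 higher in the MYB-silenced library. Among all matched genes, 376 were lower and 196 higher. This set and the genes named from it were chosen after their values were seen. Other genes of the set differed more, such as MYL3 (log2 ratio -1.63) and LTBP1 (1.67). UHRF1, which maintains DNA methylation, was lower (38.2 and 17.6 FPKM, log2 ratio -1.09), as was CCDC68 (37.0 and 17.6 FPKM, -1.05). The transcription factor gene GATA2 was higher (8.72 and 19.9 FPKM, 1.15), and so was SMPD1, the lysosomal acid sphingomyelinase gene (8.59 and 18.1 FPKM, 1.03). With 1 library per group these values have no replicate check.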
